A study of Mus musculus with 30 samples.

Results

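The 10 genes described here encode structural proteins of the basement membrane, and they were taken by name from a deposited table of 47643 genes: Col4a1, Col4a2, Col15a1, Col18a1, Lama2, Lamb2, Lamc1, Nid1, Nid2 and Hspg2. All 10 were present and passed the filter on low values in every comparison. The 30 libraries, of 4 experiments, were made from tibialis anterior, the shin muscle that lifts the foot, of male mice of the strain C57BL/6J. The first experiment held muscle of mice aged 24 months (old, n = 3) and of mice aged 6 months (young, n = 3). The second held muscle after dexamethasone, a synthetic glucocorticoid, and its own control (n = 4 each). The third held muscle under LLC cancer and its own control (n = 4 each), an abbreviation commonly used for Lewis lung carcinoma that the labels leave unexplained. The fourth held muscle with Cyr61 siRNAs and muscle with NT siRNAs (n = 4 each), where Cyr61, also named Ccn1, is a matricellular protein and the labels leave NT unexplained. The labels name no genotype, dose, duration or tumour burden, and no age outside the first experiment. They call the samples biological replicates without saying that each came from a mouse of its own, so p-values measure the spread between these samples.

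A basement membrane is the thin sheet of matrix that wraps each muscle fibre and underlies the endothelium of vessels. Laminin trimers bound to dystroglycan and integrins on the cell surface form one network, collagen IV trimers form a second, and nidogens and the proteoglycan perlecan tie them together. In muscle this sheet passes force from the fibre to the surrounding tissue, holds satellite cells in their niche and organises the neuromuscular junction. Loss of its main laminin causes a congenital muscular dystrophy.

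The series title concerns how wasting stimuli differ, and the first 3 comparisons address that question. Values are TPM, transcript levels per gene length that sum to 1000000 in each library. Reads recovered from the steps of the values, over the genes where they came out whole, were 28.0e6 to 55.3e6 per library, and the lowest number behind a member with whole reads was 117, for Col18a1 in the library old 1. Mitochondrially encoded genes took 37.9 ± 3.17% of TPM after dexamethasone, against 48.7 ± 2.09% in its control (SD, n = 4 each), so that all other genes shared a larger remainder. For this reason each log2 change is also given relative to the median gene of its comparison, and again after median-of-ratios scaling, which sets each library by the typical gene. An adjusted p beside a relative change tests the log2 change before the median was taken off, except where scaling is named. The 8 myofibre markers summed to between 69629 and 127553 TPM in every library. Cyr61 itself was at 25.5 to 52.8 TPM with Cyr61 siRNAs, against 36.8 to 67.8 TPM with NT siRNAs, and did not pass (limma adjusted p = 0.999).

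The collagen IV genes Col4a1 and Col4a2 stand head to head on chromosome 8. Their promoters are printed because the ratio of their transcripts stayed between 1.09 and 1.53 in every library. By the mm10 annotation GENCODE M21, Col4a1 lies on the minus strand at chr8:11198423-11312826 and Col4a2 on the plus strand at chr8:11312805-11449287, with starts 21 bases apart. The windows below are from RefSeq (GRCm38.p6), from 250 bases before to 50 bases after each start, along the strand of the gene. Capitals mark a CCAAT motif or a GC box, GGGCGG, on either strand. The motif TATAAA was searched likewise on both strands. Col15a1 (chr4:47207762-47208061, plus strand) and Col18a1 (chr10:77166481-77166780, minus strand, the first of 2 windows) are shown because the ratio of these related genes did not overlap between dexamethasone and its control.
Col4a1: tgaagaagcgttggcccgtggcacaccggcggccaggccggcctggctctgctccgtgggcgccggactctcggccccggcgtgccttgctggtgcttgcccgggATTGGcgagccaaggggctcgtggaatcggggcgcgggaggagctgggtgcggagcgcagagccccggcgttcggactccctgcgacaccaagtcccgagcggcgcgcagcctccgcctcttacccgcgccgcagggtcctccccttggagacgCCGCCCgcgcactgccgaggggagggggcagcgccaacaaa
Col4a2: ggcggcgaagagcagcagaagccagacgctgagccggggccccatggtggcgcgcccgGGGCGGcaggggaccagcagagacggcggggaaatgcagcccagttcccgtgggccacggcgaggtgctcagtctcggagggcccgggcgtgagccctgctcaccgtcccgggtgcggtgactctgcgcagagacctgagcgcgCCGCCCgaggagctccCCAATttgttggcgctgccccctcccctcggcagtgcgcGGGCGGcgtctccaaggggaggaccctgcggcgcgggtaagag
Col15a1: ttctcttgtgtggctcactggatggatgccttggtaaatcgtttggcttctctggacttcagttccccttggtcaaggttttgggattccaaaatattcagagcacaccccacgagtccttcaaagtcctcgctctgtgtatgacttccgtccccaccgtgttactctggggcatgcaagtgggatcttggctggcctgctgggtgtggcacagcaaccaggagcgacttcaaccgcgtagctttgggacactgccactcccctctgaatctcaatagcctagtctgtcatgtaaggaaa
Col18a1: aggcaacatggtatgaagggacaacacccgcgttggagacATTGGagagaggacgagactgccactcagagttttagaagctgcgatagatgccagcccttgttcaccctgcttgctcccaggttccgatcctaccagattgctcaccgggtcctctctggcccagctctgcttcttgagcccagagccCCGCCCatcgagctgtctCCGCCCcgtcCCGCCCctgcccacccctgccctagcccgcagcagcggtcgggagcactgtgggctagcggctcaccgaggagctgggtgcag
The Col4a1 window (chr8:11312777-11313076) and the Col4a2 window (chr8:11312555-11312854) shared 78 bases, read from opposite strands. The window of Col4a1 held 1 CCAAT and 1 GC box, and that of Col4a2 held 1 CCAAT and 3 GC boxes. The GC box of Col4a1 lies in the shared bases and is also 1 of the 3 counted for Col4a2. Col18a1 held 1 CCAAT and 3 GC boxes, and Col15a1 held none of the 3 motifs. The Col15a1 window ends before the GENCODE M21 start of that gene (chr4:47208161), so the bases at that start were not searched. Of 32851 windows of this length in the RefSeq table, 37.4% held CCAAT, 35.7% a GC box and 13.6% TATAAA. The G and C content was 74.0% for Col4a1, 73.7% for Col4a2, 52.3% for Col15a1 and 63.3% for Col18a1, with 37, 33, 8 and 16 CpG in that order. These counts describe letters only.

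The other members lie apart from each other in the genome, all as protein-coding genes of the same annotation. Col15a1 is at chr4:47208161-47313167 and Hspg2 at chr4:137468769-137570630, both on the plus strand. Col18a1 is at chr10:77052178-77166548 and Lama2 at chr10:26980036-27619758, both on the minus strand. Lamb2 is at chr9:108479736-108490530 (plus), Lamc1 at chr1:153218922-153332786 (minus), Nid1 at chr13:13437551-13512269 (plus) and Nid2 at chr14:19751265-19811787 (plus). Reads cover the whole gene in each case, so an isoform or a promoter cannot be read from these values.

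By mean TPM over the 30 libraries, Col4a1 was the most abundant member (48.5), followed by Lamb2 (37.8), Col4a2 (35.9), Hspg2 (25.8), Nid1 (22.5), Lamc1 (18.1) and Col15a1 (11.2), with Lama2 (4.51), Col18a1 (4.39) and Nid2 (3.93) lowest. By group mean, dexamethasone and its control were the highest 2 groups in all 10 members, and their ranges overlapped each other. In 9 of 10 members the lower of these 2 groups did not overlap the next one, the LLC control. Single libraries still crossed: Hspg2 was lower in dexamethasone 1 (26.3 TPM) than in LLC control 1 (29.8 TPM), and Nid1 was higher in Cyr61 siRNA 4 (34.6 TPM) than in dexamethasone 1 (32.2 TPM) and dexamethasone control 2 (33.4 TPM). Lamb2 was the exception, with group means between 27.9 and 67.4 TPM and overlap between all neighbours. Below the LLC control, neighbours overlapped except where that control itself stood above the next group, in Col15a1, Col18a1 and Lama2. Between the highest and the lowest group mean the fold was 2.42 for Lamb2 and 9.78 for Col18a1, the ends of the range over the 10 genes. Experiments differ in ways the labels do not give, so differences between the 4 experiments cannot be told apart from the experiment itself. The 11 markers of fibroadipogenic progenitors and fibroblasts, cells of the muscle interstitium, summed to 1393 to 1962 TPM after dexamethasone and 1075 to 1480 TPM in its control, against 285 to 1253 TPM over the other 6 groups. Markers of some other cells were high there too. In the same order, 10 smooth muscle and pericyte markers summed to 441 to 605 and 327 to 414 TPM, against 187 to 326 TPM. The 12 endothelial markers summed to 213 to 334 and 265 to 314 TPM, against 127 to 231 TPM, with overlap. The 5 satellite cell markers summed to 11.2 to 15.0 and 9.96 to 11.2 TPM, against 3.82 to 7.98 TPM. Tendon markers in the control, at 71.2 to 120 TPM, lay within the other groups (25.5 to 120 TPM). The part of these cells was not tested.

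Col4a1 and Col4a2, whose chains build the common collagen IV trimer, give the pattern in full. Col4a1 averaged 104 ± 23.5 TPM after dexamethasone and 103 ± 15.2 TPM in its control (SD, n = 4 each). It averaged 34.8 ± 13.4 TPM under LLC and 44.5 ± 9.12 TPM in its control (n = 4 each). It was at 19.1, 19.4 and 27.5 TPM in old muscle, against 25.9, 23.7 and 19.8 TPM in young muscle, and averaged 21.0 ± 2.84 TPM with Cyr61 siRNAs and 22.7 ± 5.63 TPM with NT siRNAs (n = 4 each). From the LLC control downwards every neighbour in this order overlapped. Col4a2 followed at 76.3 ± 16.9 and 70.9 ± 11.1 TPM for dexamethasone and its control, 27.0 ± 9.93 and 32.1 ± 5.88 TPM for LLC and its control, 18.8 ± 3.71 and 19.1 ± 3.20 TPM for old and young, and 17.2 ± 2.61 and 17.7 ± 3.48 TPM for Cyr61 and NT siRNAs.

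**Figure D1:**
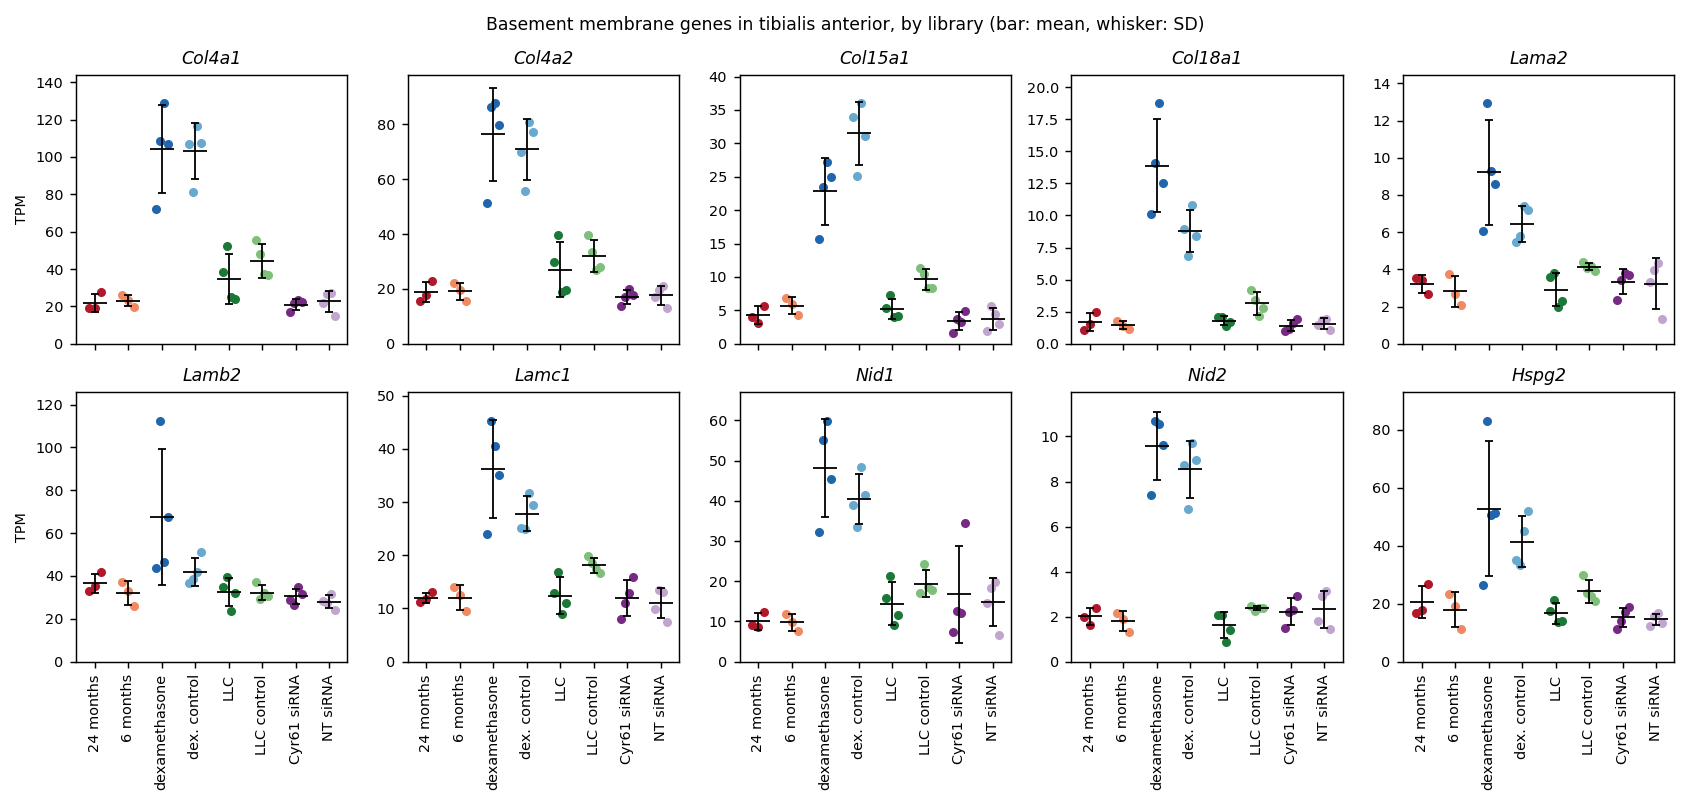
TPM (y axis, linear, from 0) of each gene in each library, by group (x axis); points are libraries, bars group means and whiskers SD (n = 3 for 24 and 6 months, n = 4 for the others). The dexamethasone experiment has the highest 2 means in each gene, and Col15a1 is lower in LLC than in its control with no overlap.

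Col15a1 had the lowest change relative to the median gene among the 10 members in each of the 4 comparisons. It encodes a collagen with a glycosaminoglycan chain that lies at the outer side of basement membranes in muscle and small vessels. Its relative log2 change was −0.49 in old muscle, −0.79 after dexamethasone, −0.74 under LLC and −0.19 with Cyr61 siRNAs. Over all 23 fits of the siRNA comparison it ranged from −0.38 to 0.03 and kept its sign in 21. After scaling, 0.514% of all genes tested had a lower change in old muscle, 1.30% after dexamethasone, 1.10% under LLC and 4.67% with Cyr61 siRNAs. It passed the test over all genes after scaling in the dexamethasone comparison, and with and without scaling in the LLC comparison. It did not pass in old muscle or with Cyr61 siRNAs. No difference of its change between the 3 wasting models passed (limma adjusted p = 0.304 for LLC against dexamethasone, 0.549 for LLC against age and 0.866 for dexamethasone against age). With 3 or 4 libraries per group, this does not show that the responses agree.

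In old muscle none of the 10 genes passed. Col15a1 was at 3.97, 3.11 and 5.70 TPM in old muscle, against 6.78, 5.97 and 4.28 TPM in young muscle, and the groups overlapped through old 3 and young 3. Its log2 change was −0.35 (SE 0.20, limma adjusted p = 0.504), and after scaling −0.48 (adjusted p = 0.340). Col4a1 was 0.22 below the median gene and Col4a2 0.16 below it, while Lamb2 and Hspg2 were 0.06 and 0.08 above it (adjusted p from 0.504 to 0.978 over the 10 genes). Lama2, the alpha chain of the main laminin of the muscle fibre, had a mean of 3.21 ± 0.471 TPM at 24 months, against 2.83 ± 0.837 TPM at 6 months (SD, n = 3 each), with an interval of −0.36 to 0.40 for the relative change. Of the 10 genes 0 were called higher and 0 lower, where 0.152% and 0.019% of all 10511 genes tested were, and 0 had an unadjusted p under 0.05, beside 11.2% of all genes, or 2 after scaling (Col15a1 and Col4a1), beside 13.2%. No member separated the groups, while 15.5% of all genes were higher and 0.761% lower in old muscle with no overlap.

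After dexamethasone, Col18a1 and Col15a1, which are close relatives, stood at opposite ends of the 10 genes, with Lamb2 almost level with Col18a1. Col18a1 encodes collagen XVIII, the heparan sulfate proteoglycan whose end fragment is endostatin. It was at 10.1, 14.1, 18.7 and 12.5 TPM after dexamethasone, against 8.95, 6.86, 10.8 and 8.39 TPM in the control. All treated libraries but the first lay above all controls. It rose by a log2 change of 0.59 (SE 0.18, limma adjusted p = 0.0316), which is 0.26 above the median gene, and it did not pass after scaling (0.25, adjusted p = 0.368). Col15a1 was at 15.7, 23.4, 27.2 and 25.0 TPM after dexamethasone, against 33.9, 25.2, 36.0 and 31.0 TPM in the control. The groups met only between dexamethasone 3 and control 2. As deposited it missed the threshold (log2 change −0.46, SE 0.17, adjusted p = 0.0555). It fell after scaling, by 0.82 on the log2 scale (SE 0.14, adjusted p = 0.00753).

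Of the 10 genes 1 was called higher and 0 lower as deposited, beside 35.9% and 1.51% of all 11944 genes tested, and 0 higher and 1 lower after scaling, beside 4.44% and 4.71%. The median relative change of the 10 genes was −0.09, where that of all genes is 0 by construction. No member separated the groups, while 34.3% of all genes were higher and 1.66% lower with no overlap. The chains of collagen IV were 0.33 (Col4a1) and 0.24 (Col4a2) below the median gene without passing. Lamb2, the beta chain enriched at the neuromuscular junction, was at 43.8, 112, 46.3 and 67.5 TPM after dexamethasone, against 36.6, 38.4, 41.6 and 51.0 TPM in the control, and its spread came mostly from dexamethasone 2 (adjusted p = 0.0924). Hspg2, which encodes perlecan, was likewise highest in that library, at 26.3, 82.9, 50.4 and 51.4 TPM after dexamethasone, against 34.9, 33.3, 45.1 and 52.0 TPM in the control (adjusted p = 0.449).

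The call of Col18a1 as deposited was lost in most fits that left out a library. Without dexamethasone 1 the call of Col18a1 held and 6 members passed upwards (Lamc1, Hspg2, Lamb2, Lama2, Col18a1 and Nid1), in a fit that called 8495 of 12128 genes higher and in which the median gene changed by 0.42. Col18a1 lost its call without dexamethasone 2, 3 or 4 or without control 1, 2 or 4 (adjusted p = 0.0549, 0.0754, 0.0581, 0.0704, 0.0958 and 0.0692). Over these fits 14.8 to 28.4% of all genes were called higher, beside 35.9% with all libraries. The call of Col15a1 after scaling held in all 8 fits that left out a library (adjusted p from 0.00868 to 0.0234).

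Markers of other cells moved in the same libraries. All 12 endothelial markers lay below the median gene (median −0.34), with 1 called lower as deposited and 6 after scaling. They summed to 213 to 334 TPM after dexamethasone and 265 to 314 TPM in the control. All 8 macrophage markers were called higher, 4 of them after scaling, and they summed to 1076 to 2614 TPM after dexamethasone, against 302 to 522 TPM in the control. The fibroadipogenic markers lay on both sides of the median gene (5 above, 6 below), with 3 called higher and 1 lower as deposited, and 0 and 1 after scaling. Of 10 markers of smooth muscle cells and pericytes 9 lay above the median gene, with 6 called higher as deposited and 0 after scaling. None of these markers was at 0 throughout, and their part in the changes of the 10 genes was not tested. In whole muscle, fewer cells of a type and less RNA per cell cannot be told apart.

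Under LLC, Col15a1 fell, and 8 other members lay below the median gene without passing. Col15a1 was at 5.32, 7.32, 3.96 and 4.23 TPM under LLC, against 11.3, 10.5, 8.32 and 8.38 TPM in the control. Every LLC library lay below every control. The log2 change was −0.80 (SE 0.17, limma adjusted p = 0.0471), and after scaling −0.75 (adjusted p = 0.0241). As deposited the call held without LLC 2 and was lost without any other single library (adjusted p from 0.0523 to 0.123). After scaling it held without LLC 2, 3 or 4 and was lost without LLC 1 (0.0544) or without control 1, 2, 3 or 4 (0.0520, 0.0652, 0.0565 and 0.0578).

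The other genes split by how far the LLC libraries stood apart. Col18a1 was at 2.11, 2.06, 1.40 and 1.67 TPM under LLC, against 4.2, 3.40, 2.18 and 2.80 TPM in the control, with no overlap (relative −0.50, adjusted p = 0.120). Lama2 was at 3.57, 3.78, 1.99 and 2.30 TPM under LLC, against 4.38, 4.10, 4.18 and 3.93 TPM in the control, again with no overlap (relative −0.37, adjusted p = 0.231). LLC 3 and LLC 4 were the low ones, and the controls hardly varied. LLC 3 was the lowest of the 4 LLC libraries in 9 of 10 members, and mitochondrially encoded genes took 60.4% of its TPM, against 46.5 to 49.3% in the other 3 LLC libraries; the part of this share was not tested. Nid2, one of 2 nidogens, the linkers between laminin and collagen IV, was at 2.07, 2.07, 0.884 and 1.39 TPM under LLC, against 2.45, 2.26, 2.37 and 2.40 TPM in the control, also with no overlap (relative −0.35, adjusted p = 0.260). Because these 3 genes are low, the pseudocount of 1 TPM makes their fitted change smaller than the ratio of their levels.

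Lamc1, the gamma chain shared by most laminins, was at 12.9, 16.9, 8.93 and 10.97 TPM under LLC, against 19.8, 18.6, 17.4 and 16.6 TPM in the control. The groups met only at LLC 2 (relative −0.49, adjusted p = 0.157). Hspg2 was at 17.3, 21.2, 13.7 and 14.2 TPM under LLC, against 29.8, 23.6, 22.5 and 20.8 TPM in the control (relative −0.47, adjusted p = 0.148). Nid1 was 0.40 below the median gene (adjusted p = 0.408). Lamb2 was at 34.6, 39.5, 23.8 and 32.1 TPM under LLC, against 37.2, 29.2, 31.8 and 30.4 TPM in the control. Its change lay 0.05 above the median gene (interval −0.29 to 0.39, adjusted p = 0.998). Without LLC 2, Lamc1 passed as well.

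Of the 10 genes 1 was called lower and 0 higher, beside 0.886% and 0.295% of all 10830 genes tested, and after scaling again 1 and 0, beside 1.57% and 1.67%. At an unadjusted p under 0.05 there were 6 of 10 as deposited, beside 13.2% of all genes, and 6 of 10 after scaling, beside 20.4%. In 4 of 10 genes (Col15a1, Col18a1, Lama2 and Nid2) all LLC libraries lay below all controls, where 6.13% of all genes did, and in 0 the reverse held, where 1.5% of all genes did. The median relative change of the 10 genes was −0.39. The fibroadipogenic markers had a median of −0.68, with 10 of 11 below the median gene. Of these markers 0 were called as deposited, and 1, Col3a1, was called lower after scaling (limma adjusted p = 0.0445). They summed to 285 to 794 TPM under LLC, against 728 to 789 TPM in the control. The tendon markers summed to 37.9 to 109 TPM under LLC and 85.1 to 120 TPM in the control, and 1 of 5 tested, Tnmd, was called lower. The endothelial markers had a median of 0.16 above the median gene and summed to 160 to 231 TPM under LLC and 163 to 206 TPM in the control. Of 12 tested, 0 were called as deposited and 2, Flt1 and Esam, were called higher after scaling (limma adjusted p = 0.0205 and 0.0192). The macrophage markers, 7 of 8 below the median gene, summed to 47.4 to 254 TPM under LLC and 175 to 368 TPM in the control. No marker list gene was at 0 throughout, and the part of these cells in the change was not tested.

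**Figure D2:**
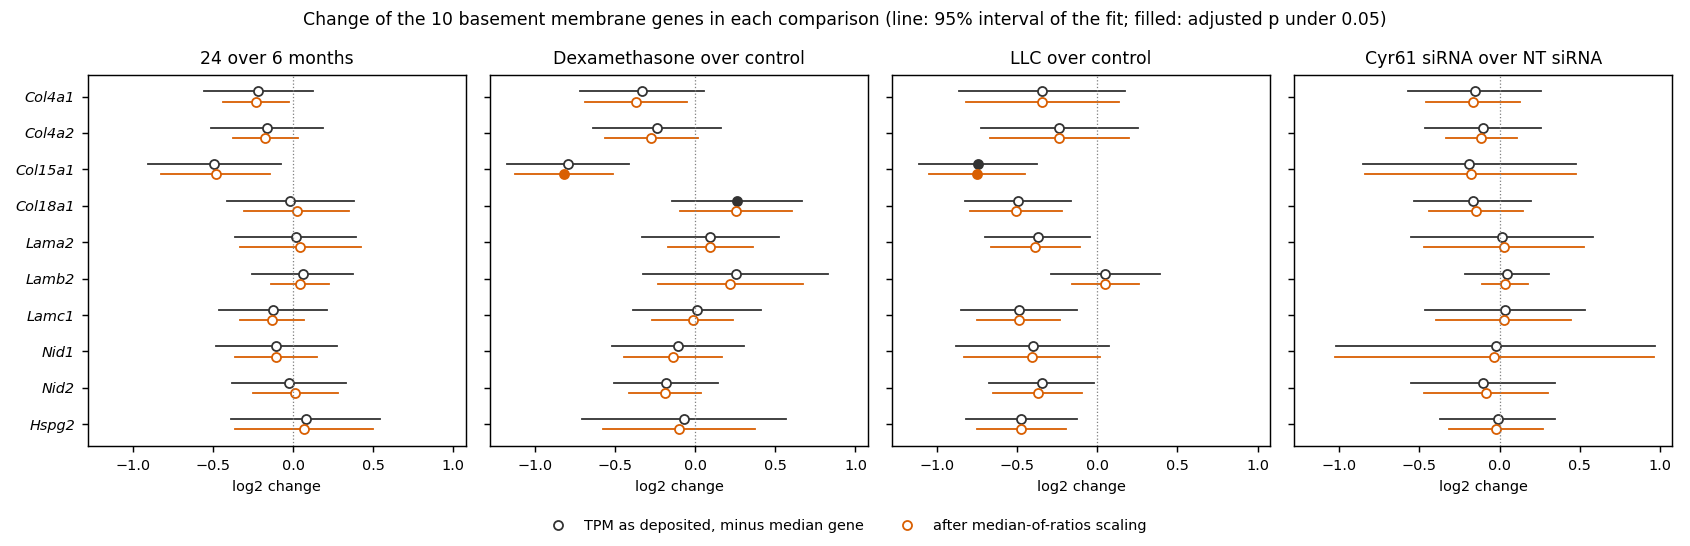
Log2 change (x axis) of each gene (rows) in the 4 comparisons, as deposited minus the median gene (grey) and after median-of-ratios scaling (orange); lines are 95% intervals of the limma fit and filled points have an adjusted p under 0.05. The filled points are Col15a1 under LLC (both) and after dexamethasone (scaled), and Col18a1 after dexamethasone (as deposited, where the log2 change before subtraction of the median was tested).

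With Cyr61 siRNAs none of the 10 genes passed. The siRNA comparison asks whether a lower Cyr61 transcript level goes with other levels of these genes, and Cyr61 itself did not pass. Of 11006 genes 0 were called in either direction by limma, with 109 at an unadjusted p under 0.05 (184 after scaling), so 0 of 10 stands beside 0% here. Col15a1 was at 1.58, 3.70, 3.28 and 4.92 TPM with Cyr61 siRNAs, against 1.98, 5.68, 4.42 and 2.92 TPM with NT siRNAs. The ranges overlapped, and no member separated the groups (0.954% of all genes were higher and 0.0363% lower with no overlap). Nid1 was at 7.45, 12.7, 12.1 and 34.6 TPM with Cyr61 siRNAs, against 14.6, 18.2, 19.8 and 6.56 TPM with NT siRNAs. The single high library, Cyr61 siRNA 4, made its interval the widest, from −1.02 to 0.97 relative to the median gene. For Col4a1 the interval was −0.57 to 0.26 and for Lamb2 −0.21 to 0.31. A fall of about the size seen in Col15a1 under LLC lies outside both, but inside that of Nid1. The intervals of Col4a1 and Lamb2 say nothing of Col15a1 itself or of the other members.

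The response to LLC was set against that to dexamethasone in a fit of the 22 libraries of the first 3 experiments. As deposited it was lower in 3 of 10 members and higher in 0, beside 26.5% and 1.09% of all 12392 genes tested, so the count is near the share of all genes. After scaling it was lower in 1, Col18a1, and higher in 0, beside 3.7% and 2.86%. The LLC change of Col18a1 lay 1.14 below its dexamethasone change on the log2 scale (SE 0.26, limma adjusted p = 0.00605), and 0.77 below relative to the median gene. After scaling it passed again (adjusted p = 0.0378), and without scaling it passed in all 16 fits that left out a library (adjusted p from 0.00180 to 0.0172). Col18a1 was thus lower in every LLC library than in its controls, and higher in 3 of 4 dexamethasone libraries than in all controls.

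Lamc1 and Lama2, chains of one laminin, differed by −0.88 (adjusted p = 0.0170) and −0.85 (adjusted p = 0.0231) as deposited and did not pass after scaling (adjusted p = 0.0798 and 0.166). Lama2 lost its call without dexamethasone control 1 (0.0504) or LLC 3 (0.0583). The count of 3 became 7 without dexamethasone 1, where 54% of all genes were lower, and 5 without LLC 2, where 33.3% were. For Col4a1 and Col4a2 the responses differed by −0.02 and −0.01 relative to the median gene, with intervals of −0.65 to 0.61 and −0.62 to 0.61. Between LLC and age, limma called 0 members (3 at an unadjusted p under 0.05, beside 11.8% of all genes; 0.00807% of all genes higher and 0.0403% lower, or 0.0888% and 0.137% after scaling). Between dexamethasone and age it also called 0 (0 at an unadjusted p under 0.05, beside 14.8% of all genes; 1.3% of all genes higher and 0.759% lower, or 0.807% and 2.11% after scaling).

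Ratios within a library do not depend on its scaling, and 4 of them were tested in the 4 comparisons by two-sided exact permutation tests. Col4a1 to Col4a2 lay between 1.09 and 1.53 in all 30 libraries, with a median of 1.30. It was 1.28 ± 0.0402 under LLC and 1.38 ± 0.0533 in the control (exact p = 0.0857). None of the 16 tests passed after Benjamini-Hochberg adjustment, and the lowest adjusted value was 0.4. With 4 libraries against 4 an exact p cannot fall under 0.0286, and with 3 against 3 not under 0.1. These limits made a pass after adjustment over 16 tests nearly impossible, so its absence says nothing about how stable the ratios are.

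Of the 4 tested ratios, 2 separated groups in a comparison. Lamb2 to Lamc1 was 2.68, 2.34, 2.66 and 2.93 under LLC, against 1.87, 1.57, 1.83 and 1.83 in the control. That is a log2 difference of 0.58 with no overlap (exact p = 0.0286, the smallest that 70 arrangements allow; adjusted 0.4). In old muscle it was 2.96, 3.01 and 3.18, against 2.62, 2.66 and 2.74 in young muscle, also with no overlap (exact p = 0.1, the smallest that 20 arrangements allow; adjusted 0.4). After dexamethasone it was 1.84 ± 0.550, against 1.51 ± 0.177 in the control, with overlap (exact p = 0.371). Lama2 to Lamc1 stayed between 0.175 and 0.338 over all libraries. Nid1 to Nid2 was 5.01 ± 0.372 in old and 5.52 ± 0.286 in young muscle (n = 3 each, exact p = 0.1), with no overlap, and reached 11.8 in Cyr61 siRNA 4.

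Col15a1 to Col18a1 was picked after its values were seen and is given without a test. It was 1.55, 1.66, 1.45 and 2.00 after dexamethasone, against 3.78, 3.67, 3.32 and 3.70 in the control, and no treated library came near a control. In old muscle it was 3.61, 2.02 and 2.30, against 3.76, 4.30 and 3.69 in young muscle, again without overlap but with old 1 close to the young range. Under LLC it was 2.86 ± 0.486, against 3.15 ± 0.481 in the control (SD, n = 4 each), and the groups overlapped, since both genes were lower. With Cyr61 siRNAs it was 2.36 ± 0.710, against 2.37 ± 0.769 with NT siRNAs.

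**Figure D3:**
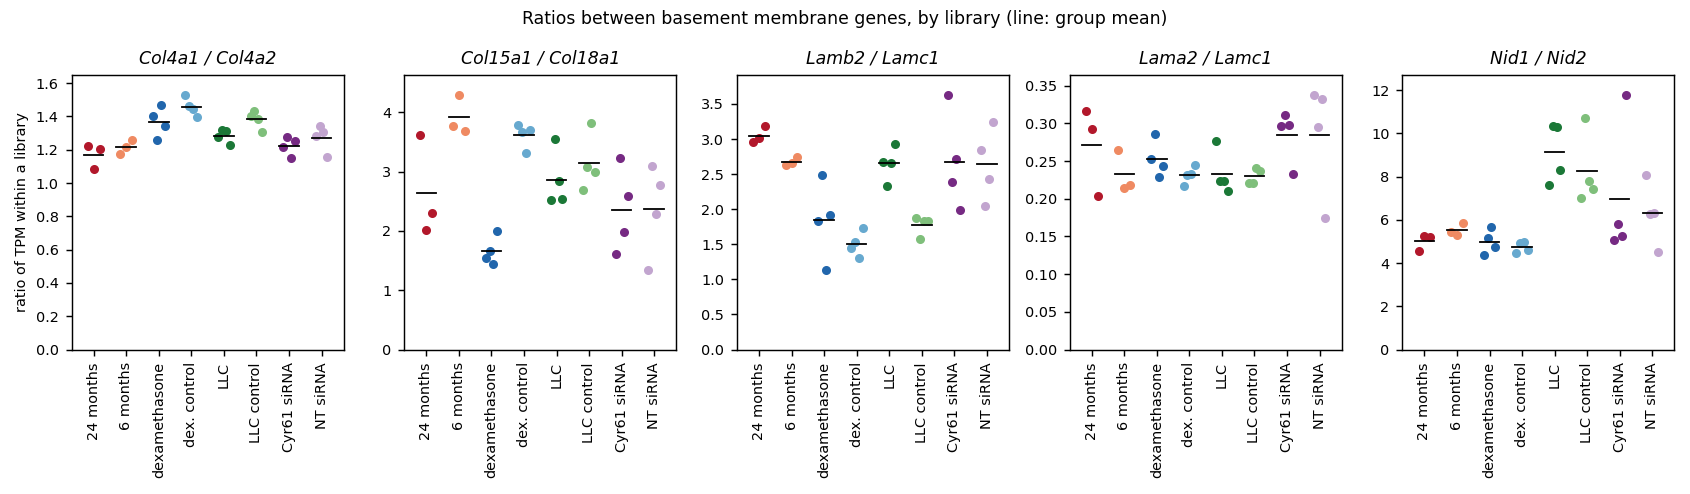
Ratio of the TPM of 2 genes within each library (y axis, linear, from 0) by group (x axis); points are libraries and lines group means. Col4a1 to Col4a2 stays between 1.09 and 1.53, Col15a1 to Col18a1 is lower after dexamethasone than in its control without overlap, and Lamb2 to Lamc1 is higher under LLC than in its control without overlap.

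Across the 30 libraries, after scaling and after the mean of each experiment was taken off, Col4a1 and Col4a2 were the most alike of the 45 pairs (Pearson r = 0.97, n = 30 libraries). Against the mean of the other 9, r was 0.93 for Lamc1, 0.87 for Nid2, 0.82 for Col4a2, 0.81 for Col4a1, 0.77 for Nid1, 0.72 for Hspg2, 0.71 for Col15a1, 0.67 for Lama2 and 0.63 for Col18a1. Lamb2 was at 0.03, and its pair with Col15a1 was the lowest of all (−0.26). Outside the 10, the 5 genes most like their mean among 6705 genes with a mean of at least 5 TPM were Loxl2, a lysyl oxidase that crosslinks collagen (0.90), Col5a3, a collagen V chain (0.90), Col6a2 and Col6a1, chains of collagen VI (0.88 each), and Lamb1, the other common laminin beta chain (0.85). These correlations describe libraries that share groups and depth, and carry no test.

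Other genes of the basement membrane were counted from lists. Of 28 further components, 16 could be tested after dexamethasone, of which 5 were called higher and 0 lower, beside 35.9% and 1.51% of all genes, and 4 stayed higher after scaling, where 4.44% of all genes were higher and 4.71% lower. These shares stand beside every list count after dexamethasone. The 4 were Npnt, the integrin ligand nephronectin (10.2 ± 3.51 TPM against 3.72 ± 1.29 TPM in the control, n = 4 each; relative 0.90, limma adjusted p = 0.00503), Smoc1, a calcium-binding matrix protein (relative 0.71, adjusted p = 0.00165), and the fibulins Fbln1 (0.52, adjusted p = 0.00308) and Fbln2 (0.48, adjusted p = 0.00813). These values are as deposited, and after scaling the limma adjusted p was 0.0246, 0.00613, 0.00584 and 0.0447 in that order. The list as a whole had a median of −0.02. In old muscle, under LLC and with Cyr61 siRNAs 0 of 13 tested in each passed, with medians of 0.21, −0.12 and 0.02.

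Of the laminin and collagen IV receptors with their complex, 9 of 20 were called higher after dexamethasone and 0 lower. After scaling 2 remained higher, Itga7, the laminin-binding integrin chain of muscle fibres (82.4 ± 21.9 TPM against 42.0 ± 5.21 TPM in the control, n = 4 each; as deposited relative 0.60, limma adjusted p = 0.00559), and Sntb1, a syntrophin of the dystrophin complex (as deposited 0.91, adjusted p = 0.00570). The limma adjusted p after scaling was 0.0151 for Itga7 and 0.0166 for Sntb1. Itga6, a laminin-binding integrin chain of endothelium and epithelia, was lower after scaling (−0.50, adjusted p = 0.0105) and is named after its values were seen. Dag1, dystroglycan itself, averaged 94.4 ± 25.6 TPM after dexamethasone and 67.6 ± 8.92 TPM in the control. Of 12 genes that glycosylate dystroglycan for laminin binding 3 were called higher and 0 remained after scaling. In the other 3 comparisons 0 genes of both lists passed.

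Of 21 genes of collagen folding, secretion and crosslinking 13 were called higher after dexamethasone and 0 lower, with a median of 0.20. They included Loxl1, a lysyl oxidase (30.4 ± 8.01 TPM against 13.7 ± 3.89 TPM in the control, n = 4 each; log2 change 1.10, relative 0.77, limma adjusted p = 0.00534), and Serpinh1, the collagen chaperone (log2 change 0.75, relative 0.42, adjusted p = 0.0327). After scaling 1 of the 21 was called higher, Loxl1 (limma adjusted p = 0.0425), and 1 lower. Serpinh1 did not pass (adjusted p = 0.380). Pxdn, the peroxidase that crosslinks collagen IV, was lower after scaling (−0.51, adjusted p = 0.0183; named after its values were seen). Of 17 matrix proteases and inhibitors 6 were called higher and 1 lower. The protease inhibitor Timp1 (39.8 ± 19.1 TPM against 9.69 ± 1.89 TPM in the control, n = 4 each; relative 1.51, adjusted p = 0.00225), Mmp19 (1.39, adjusted p = 0.00278) and Mmp9, a gelatinase that cuts collagen IV (1.15, adjusted p = 0.00121), were higher before and after scaling. The proteoglycan-cutting protease Adamts5 was lower (log2 change −0.38, relative −0.71, adjusted p = 0.0278), also after scaling (−0.69, adjusted p = 0.00265). Another inhibitor, Timp4, averaged 3.86 ± 1.88 TPM after dexamethasone and 7.02 ± 2.90 TPM in the control, and was lower after scaling (−1.03, adjusted p = 0.0279; named after its values were seen).

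Under LLC 0 of 20 folding and 0 of 10 protease genes passed as deposited. After scaling the membrane-bound protease Mmp15 was lower (5.55 ± 0.862 TPM against 8.38 ± 0.765 TPM in the control, limma adjusted p = 0.0188) and the inhibitor Timp3 higher (27.3 ± 3.02 TPM against 19.5 ± 2.94 TPM in the control, adjusted p = 0.0233), both with no overlap and both named after their values were seen. In old muscle and with Cyr61 siRNAs 0 genes of these lists passed.

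**Figure D4:**
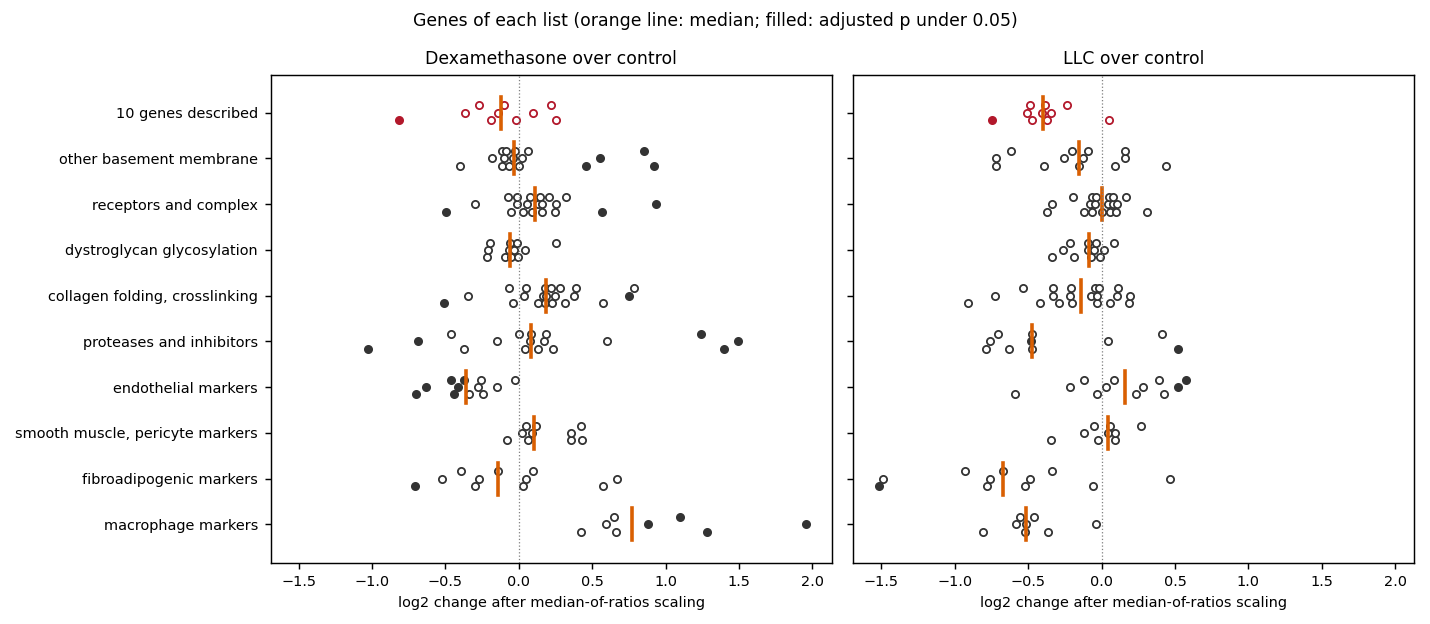
Log2 change after median-of-ratios scaling (x axis) of every tested gene of each list (rows), after dexamethasone and under LLC; each point is 1 gene, the orange line is the median of the list and filled points have a limma adjusted p under 0.05. Under LLC the 10 genes described (top row) have a median of −0.40 and 1 filled point, Col15a1.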

How the data were processed

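RNA of 30 tibialis anterior samples was extracted with Trizol, and per the labels' protocols a TruSeq stranded mRNA kit and a NovaSeq sequencer were used. The authors deposited TPM, 1 column per sample and 1 row per gene symbol, each column summing to 1000000; the build was mm10 per the submitters' processing notes. Aligner, counter, annotation, strand setting and filters were not given in the sources used here. The 30 columns were matched to samples by title, and 0 were unused. With exon lengths of GENCODE M21, values came out as whole reads (tolerance 0.05, not testable above 2000 reads) in all libraries for 16487 of 22179 genes, not for Col4a1, Nid1 and Nid2; reads cover counting error only.

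For each experiment, log2(TPM + 1) was fitted for genes reaching 1 TPM in a number of libraries equal to the smaller group, with limma 3.58.1 in R 4.3.3 (variance trend, two-sided), and p-values were adjusted by Benjamini-Hochberg over all genes tested, with calls under 0.05. Differences between responses used 1 fit of 22 libraries. Ratios within libraries were tested by exact permutation, adjusted over 16 tests. Alternatives were median-of-ratios scaling, a pseudocount of 0.1, no filter, all groups in 1 fit, a replicate block and leaving out each library; the pipeline was tested on simulated data. The members, lists and naming rule (up to 4 called genes per list, by size of relative change, where the higher group averaged 1 TPM or more) were chosen with earlier results of these data known. Of the glycosylation list 12 of 15 symbols matched. Promoters came from RefSeq; Lamc1 and Nid2 had none in the table used. Plots used Python 3.11.15 and matplotlib 3.10.9.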

Additional observations from a re-analysis of the deposited data

Results flagged for a closer look

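Of 84 sets of 4 libraries tested for a sample far from its group, 2 held one, and chance gives about 1 in 20. The ratio of Nid1 to Nid2 was 11.8 in Cyr61 siRNA 4, where the other 3 libraries of that group lay between 5.05 and 5.82. The ratio of Lamb2 to Lamc1 was 1.57 in LLC control 2, where the other 3 controls lay between 1.83 and 1.87. The log2 difference between the LLC and dexamethasone responses, as deposited, was −1.14 for Col18a1, −0.85 for Lama2 and −0.88 for Lamc1, each past the limma threshold (adjusted p = 0.00605, 0.0231 and 0.0170), as for 26.5% of all genes; after scaling Col18a1 alone of the 3 passed.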

How the results depend on the processing

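The number of members called after dexamethasone, 1 as deposited, was 0 without the filter on low values, 2 with all groups in 1 fit (Lamb2 and Col18a1) and 0 to 6 when a library was left out, where 18.1%, 49.4% and 14.8 to 70% of all genes were called higher. Under LLC, 1 as deposited, it was 0 with a pseudocount of 0.1, without the filter and with all groups in 1 fit, and 0 to 2 when a library was left out (0.119 to 1.39% of all genes lower). For LLC against dexamethasone, 3 as deposited, it was 1 after median-of-ratios scaling (Col18a1) and 2 to 7 when a library was left out (12.6 to 54% of all genes lower). The relative change of Hspg2 after dexamethasone, −0.07, ranged from −0.25 to 0.13 when a library was left out, and at 0.13 (without dexamethasone 1) it passed (limma adjusted p = 0.0416). In old muscle, with Cyr61 siRNAs and in the other differences between responses, 0 members were called under all alternatives run. No tested ratio passed under any alternative, which the few libraries made nearly certain and which says nothing of stability. The cause of these shifts was not tested. With a replicate block, 3 members were called after dexamethasone (Col15a1, Lamb2 and Col18a1; 46.3% of all genes higher and 1.72% lower) and 4 under LLC (Lamc1, Col15a1, Hspg2 and Col18a1; 3.38% lower), and again 4 with scaling and the block (1.6% lower). Same-numbered libraries deviated together with r from 0.015 to 0.498, in each comparison with at least 1 pair under 0.1, and not every library was most like its own number, so the numbers were not taken to pair the samples. Among members with whole reads the lowest number was 117, for Col18a1 in old 1, and Nid2, whose reads did not come out whole, was about as low (119).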
